A study of Mus musculus with 8 samples.

Results

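Transcripts of 10 AP-1 and immediate early genes were followed through the differentiation of mouse osteoblastic cells treated with locamidazole (LAMZ). The genes were the Fos family members *Fos*, *Fosb*, *Fosl1* and *Fosl2*, the Jun family members *Jun*, *Junb* and *Jund*, the zinc finger factors *Egr1* and *Egr2*, and *Atf3*. They were picked by symbol from the 51822 gene symbols used, with earlier results of these data known. All 10 were among the 12514 genes that passed the filter for testing, which asked for 1 RPKM or more in 2 or more of the 8 libraries. RPKM is a read count divided by the length of the gene and by the size of the library. *Fosb* and *Egr2* passed narrowly, with 3 and 2 libraries at that level.

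LAMZ is an aminoindazole derivative that the study followed as a stimulator of both muscle and bone cells. The cells were MC3T3-E1 in the sample labels, a clonal preosteoblast line from mouse calvaria, whereas the series text and the methods name calvarial cells. The control libraries held macrophage markers, with values given below, so the comparisons may mix cell types. Which cells were sequenced was not tested. All cultures received osteogenic medium with ascorbic acid, dexamethasone and β-glycerophosphate. Control cultures received the vehicle DMSO, treated cultures received LAMZ at 1 μmol·L-1, and total RNA was taken on day 7 or day 14. Each of the 4 groups had 2 libraries. The header of the file of LAMZ replicate 1 of day 7 named its column in another way than the other files, and that library was placed in its group by its sample label. The labels do not say whether the libraries of a group came from separate cultures, so p-values measure only the spread between these libraries, which may be technical.

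Immediate early genes are transcribed within minutes of a stimulus from factors that are already present in the cell, such as serum response factor with its ELK partners at CArG boxes and CREB at cAMP response elements (CRE). Fos and Jun proteins pair through leucine zippers to form AP-1, which binds the site TGAGTCA. Jun proteins can also pair with each other or with ATF proteins, whereas Fos proteins need a partner. In bone, AP-1 members take part in both osteoblast and osteoclast differentiation, and EGR factors and ATF3 respond to growth factor, calcium and stress signals. The libraries here show steady levels after days of culture, not the transient peak that follows a stimulus.

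The regions upstream of 8 of the 10 genes were matched in RefSeq (build GRCm38.p6), and *Fosl1* and *Egr1* were not. The 250 bases before a transcription start are printed 5′ to 3′ for the calcium-responsive gene *Fos*, for *Jun* and *Atf3*, and for an EGR gene. Capitals mark motifs found on either strand by a search for exact letters.

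Fos, chr12:85473640-85473889, plus strand: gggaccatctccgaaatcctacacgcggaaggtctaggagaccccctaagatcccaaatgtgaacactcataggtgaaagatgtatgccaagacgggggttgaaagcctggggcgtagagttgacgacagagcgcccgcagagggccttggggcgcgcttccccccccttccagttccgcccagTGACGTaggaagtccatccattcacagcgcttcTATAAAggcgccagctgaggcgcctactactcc
Jun, chr4:95052223-95052472, minus strand: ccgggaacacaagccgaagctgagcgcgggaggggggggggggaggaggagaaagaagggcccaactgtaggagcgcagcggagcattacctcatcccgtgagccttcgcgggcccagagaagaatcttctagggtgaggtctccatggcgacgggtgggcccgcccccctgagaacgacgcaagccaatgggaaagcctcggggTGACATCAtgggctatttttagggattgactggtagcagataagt
Atf3, chr1:191183334-191183583, minus strand: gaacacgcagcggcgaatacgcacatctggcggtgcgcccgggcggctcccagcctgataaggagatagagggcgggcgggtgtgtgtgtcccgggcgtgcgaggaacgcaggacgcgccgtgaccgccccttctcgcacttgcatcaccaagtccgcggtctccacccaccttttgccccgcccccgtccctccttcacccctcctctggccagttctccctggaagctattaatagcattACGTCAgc
Egr2, chr10:67537619-67537868, plus strand: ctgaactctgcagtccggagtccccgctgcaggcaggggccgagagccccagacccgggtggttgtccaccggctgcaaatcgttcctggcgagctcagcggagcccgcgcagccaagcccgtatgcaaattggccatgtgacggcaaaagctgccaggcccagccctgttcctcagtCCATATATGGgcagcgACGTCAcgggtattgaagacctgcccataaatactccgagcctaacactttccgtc

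In *Fos* the capitals mark the CRE core TGACGT, which begins 66 bases before the start, and a TATAAA element at 33 bases. In *Jun* they mark TGACATCA, searched here as a Jun-type AP-1 site that differs from TGAGTCA, at 45 bases. In *Atf3* they mark ACGTCA, the CRE core on the other strand, at 8 bases, and in *Egr2* they mark a CArG box, CCATATATGG, at 72 bases and ACGTCA at 56 bases. Among 32851 mouse windows of 250 bases before to 50 after a start, the CRE core was present in 7.51%, TGACATCA in 3.62%, a CArG box in 1.63% and TATAAA in 13.6%. The upstream bases of *Fosl2* and *Fosb* held the EGR site GCGGGGGCG, found in 2.91% of windows, at 79 and 50 bases before the start. The CRE core includes the full CRE, TGACGTCA, which was in 1.79% of windows and in none of these 4 sequences. *Egr2* has further starts. The window of chr10:67535249-67535498 held none of the motifs, and that of chr10:67537316-67537565 held a CArG box, CCTTTTTTGG, but no CRE core. The only window of *Jund*, chr8:70697489-70697738, held none of the motifs. That window lies upstream of the annotated gene start at 70698949 and not next to it, so the bases beside that start were not searched. *Junb* held only TATAAA, at the start itself. The windows of *Atf3* and *Fosl2* lie inside the annotated genes, chr1:191170296-191218039 and chr5:32135801-32157842, whose outer starts were not searched. All these matches describe letters and not binding.

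The 8 libraries held between 3463538 and 5832101 mapped reads, as recovered from the RPKM values. At that depth *Fosl2* rested on 475 to 1204 reads per library, *Jund* on 195 to 566, *Jun* on 94 to 301, *Junb* on 35 to 139 and *Fos* on 32 to 62. *Atf3* had 6 to 138 reads and *Egr1* had 16 to 136. *Fosb* with 3 to 39, *Fosl1* with 6 to 24 and *Egr2* with 4 to 21 reads were measured with low precision, and for these a difference that missed the test may only be too small for this depth. Of 16 macrophage markers 15 were in the files, and 13 were lower with LAMZ at day 7 and 14 at day 14, beside 8.49% and 16% of all tested genes. Their summed level was 477 to 625 RPKM in control libraries at day 7, 1186 to 1208 RPKM at day 14, and 9.33 to 11.4 RPKM in the 4 LAMZ libraries, where *C1qa*, *C1qb*, *C1qc*, *Tyrobp*, *Ctss* and *Laptm5* were listed at 0. The summed level of 12 osteoblast markers was 9663 to 13739 RPKM in control and 12265 to 20120 RPKM in LAMZ libraries. The part of these shifts in the results below was not tested, and in bulk RNA fewer cells of a type and less RNA per cell cannot be told apart.

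In control cultures at day 7 the order of the mean levels was *Jund*, *Fosl2*, *Jun*, *Junb*, *Fos*, *Egr1*, *Atf3*, *Fosl1*, *Egr2* and *Fosb*, from 38.5 ± 6.71 down to 0.255 ± 0.0364 RPKM (SD, n = 2, as for all means here). The libraries of *Junb* and *Fos* overlapped in that order, and so did those of *Egr1* and *Atf3*. The order changed most for *Atf3*, which had rank 7 in both groups at day 7, rank 5 in control cultures at day 14 and rank 4 in LAMZ cultures at day 14. *Fosl2* and *Jund* changed places in LAMZ cultures at day 7, where their libraries overlapped at means of 28.4 ± 2.09 and 28.0 ± 0.255 RPKM.

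**Figure D1:**
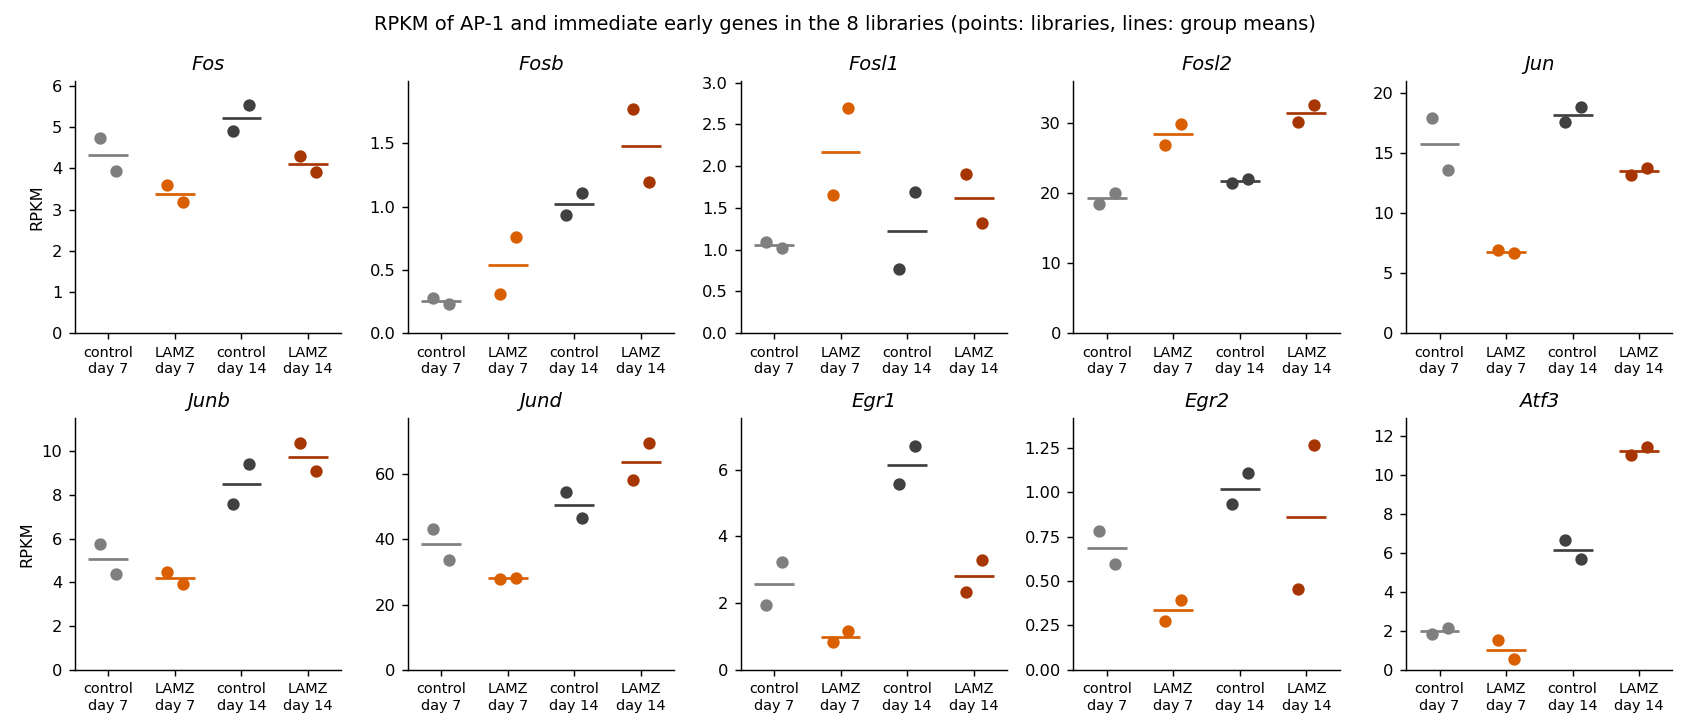
RPKM of the 10 genes in each of the 8 libraries, with 1 panel per gene, a linear axis from 0, points for libraries and lines for the means of the 2 libraries of a group. *Fosl2* lay higher and *Jun* and *Egr1* lower with LAMZ on both days, and *Atf3* was highest in the LAMZ libraries at day 14, at 11.0 and 11.4 RPKM.

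The first question was which of these genes differed with LAMZ on each day. At day 7, *Fosl2* was higher and *Jun* and *Egr1* were lower, which is 3 of the 10 genes against 12.8% of all tested genes (4.35% higher and 8.49% lower). At day 14, *Fosl2* and *Atf3* were higher and *Egr1* was lower, again 3 of 10, against 23% of all tested genes (6.96% higher and 16% lower). Averaged over the days, *Fosl2*, *Jun* and *Egr1* passed, against 29.5% of all tested genes. The median difference of the 10 genes in log2(RPKM + 1) was -0.31 at day 7 beside -0.08 for all tested genes, and 0.22 at day 14 beside -0.15. Below, groups that lie apart or without overlap hold 2 libraries each. The share of all tested genes that lay apart with LAMZ is not given here, so such separation describes the libraries and is not a test.

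Among the Fos family, *Fosl2*, which encodes Fra-2, was the main transcript. It measured 18.4 and 20.0 RPKM in control and 26.9 and 29.9 RPKM in LAMZ libraries at day 7, then 21.4 and 22.0 RPKM in control and 30.2 and 32.6 RPKM in LAMZ libraries at day 14. Every LAMZ library stood above every control library of either day. The ratio of the mean RPKM was 1.48 at day 7 and 1.45 at day 14, and the differences in log2(RPKM + 1) were 0.54 ± 0.11 (SE, adjusted p = 0.0206) and 0.51 ± 0.11 (adjusted p = 0.0153). The libraries also differed in their summed RPKM, and after rescaling to the same sum the differences were 0.24 and 0.16 with adjusted p of 0.175 and 0.307. That rescaling moved the median of all tested genes from -0.08 to -0.31 at day 7 and from -0.15 to -0.43 at day 14. Relative to this median, *Fosl2* was higher by 0.62 as deposited and by 0.56 after rescaling at day 7, and by 0.66 and 0.59 at day 14. The call at day 7 was lost in a fit of the day 7 libraries alone (adjusted p = 0.0723) and without control replicate 1 (adjusted p = 0.0854), LAMZ replicate 1 (adjusted p = 0.0762) or LAMZ replicate 2 (adjusted p = 0.129), and the call at day 14 was lost without any single day 14 library (adjusted p from 0.0501 to 0.0955).

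The calcium-responsive gene *Fos* measured 4.74 and 3.93 RPKM in control and 3.59 and 3.18 RPKM in LAMZ libraries at day 7. At day 14 it measured 4.91 and 5.55 RPKM in control and 4.30 and 3.92 RPKM in LAMZ libraries. The LAMZ libraries were the lower ones on both days without overlap, by -0.28 at day 7 (95% interval -0.59 to 0.03, adjusted p = 0.218) and by -0.28 at day 14 (95% interval -0.59 to 0.02, adjusted p = 0.164), so neither difference passed. These intervals rest on 2 libraries per group, and their upper bounds of 0.03 and 0.02 hold only for the scale as deposited. After centring on the median the differences were -0.17 and -0.09. By qRT-PCR in MC3T3-E1 cells the study reported an increase of *Fos* by LAMZ, at a time that its text does not give. After rescaling to the same sum *Fos* passed as lower, by -0.51 (adjusted p = 0.0262) and -0.59 (adjusted p = 0.00951), while relative to the median of all tested genes it was at -0.20 on either scale at day 7 and at -0.14 and -0.16 at day 14.

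*Fosl1*, which encodes Fra-1, and *Fosb* were the least abundant of the family. *Fosl1* measured 1.09 and 1.01 RPKM in control and 1.65 and 2.70 RPKM in LAMZ libraries at day 7, and 0.764 and 1.68 RPKM in control and 1.91 and 1.32 RPKM in LAMZ libraries at day 14. The groups were apart at day 7 and overlapped at day 14, and the test gave adjusted p of 0.166 and 0.512. *Fosb* measured 0.281 and 0.229 RPKM in control and 0.310 and 0.761 RPKM in LAMZ libraries at day 7, and 0.936 and 1.11 RPKM in control and 1.77 and 1.19 RPKM in LAMZ libraries at day 14. Its LAMZ libraries were the higher ones on both days, with adjusted p of 0.490 and 0.416. Because *Fosl1* shares bases with *Ccdc85b* on the opposite strand and the counting is not stated to use strand, its reads cannot be told apart from those of that gene.

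The summed RPKM of the 4 Fos family genes was 24.5 and 25.2 in control and 32.5 and 36.5 in LAMZ libraries at day 7, and 28.0 and 30.3 in control and 38.2 and 39.0 in LAMZ libraries at day 14. *Fosl2* made up 72.5% to 79.5% of this sum in the 4 control libraries and 79.1% to 83.5% in the 4 LAMZ libraries, ranges that overlapped slightly. The share of *Fos* was 15.6% to 19.3% in control and 8.72% to 11.3% in LAMZ libraries, without overlap. Both shares are ratios within a library and do not depend on how libraries are scaled. The family sum does, and after rescaling to the same sum it was 34.1 and 38.4 in control and 36.7 and 37.7 in LAMZ libraries at day 14, which overlap.

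**Figure D2:**
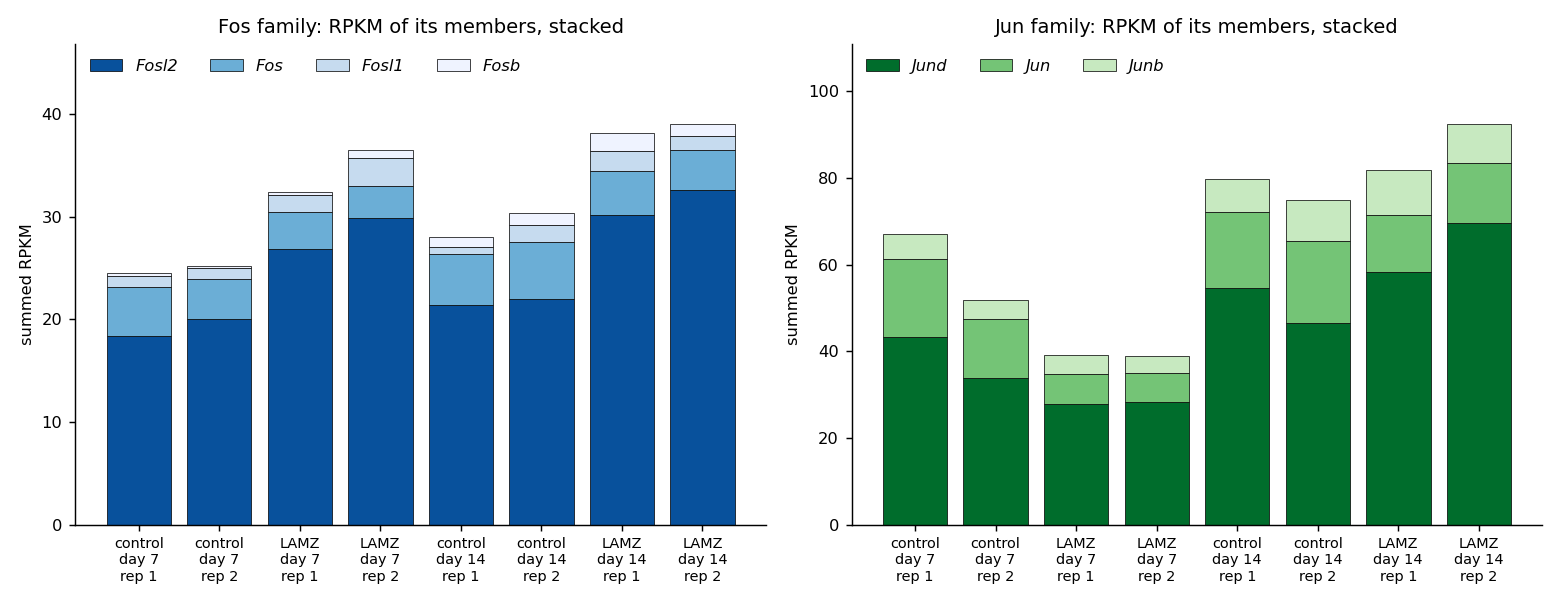
Stacked RPKM of the Fos family (left) and the Jun family (right) in each of the 8 libraries, with a linear axis from 0. *Fosl2* and *Jund* filled most of each bar, the Fos family sum as deposited was higher with LAMZ but overlapped at day 14 once libraries were rescaled to the same sum, and the Jun family sum was lowest in the LAMZ libraries at day 7, at 38.8 and 39.2 RPKM.

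Among the Jun family, *Jun*, which encodes the strongest activator of the 3 proteins, fell with LAMZ at day 7. It measured 18.0 and 13.6 RPKM in control and 6.91 and 6.68 RPKM in LAMZ libraries at day 7, and 17.6 and 18.9 RPKM in control and 13.2 and 13.8 RPKM in LAMZ libraries at day 14. The groups were apart on both days, although control replicate 2 at day 7 lay close to the LAMZ libraries at day 14. The ratio of the means was 0.431 at day 7, with a difference of -1.09 ± 0.14 (SE, adjusted p = 0.00272), a call that held under all 11 other settings and without any of the 8 libraries. At day 14 the difference was -0.40 ± 0.14 and did not pass (adjusted p = 0.0771), but it passed without either control library of day 7 (adjusted p = 0.0347 in each case) and after rescaling to the same sum (-0.75, adjusted p = 0.00352). The promoter of *Jun* printed above holds TGACATCA, but a link of this match to the levels of *Jun* was not tested. The antisense gene *Junos*, which overlaps *Jun*, was listed at 0.0466 to 0.351 RPKM.

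*Jund*, which is often expressed at a steady level, measured 43.2 and 33.8 RPKM in control and 27.8 and 28.2 RPKM in LAMZ libraries at day 7. At day 14 it measured 54.5 and 46.5 RPKM in control and 58.2 and 69.5 RPKM in LAMZ libraries. The LAMZ libraries were thus the lower ones at day 7 and the higher ones at day 14, but neither difference passed, at -0.43 (adjusted p = 0.116) and 0.33 (adjusted p = 0.170). After rescaling to the same sum, that at day 7 was -0.73 (adjusted p = 0.00927) and that at day 14 turned to -0.03, whereas centring on the median gave 0.52 at day 14 (adjusted p = 0.0485). *Gm11175*, antisense to *Jund*, was at 8.47 to 44.9 RPKM, so that without stated strand the reads of the pair are uncertain.

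*Junb*, a partner with weaker activity of its own, measured 5.76 and 4.39 RPKM in control and 4.48 and 3.92 RPKM in LAMZ libraries at day 7, and 7.61 and 9.42 RPKM in control and 10.4 and 9.08 RPKM in LAMZ libraries at day 14. The groups overlapped on both days, with adjusted p of 0.429 and 0.469. *Prdx2* on the opposite strand shares bases with *Junb* and was at 36.1 to 45.7 RPKM in the 8 libraries.

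The makeup of the Jun family differed with LAMZ in each library. The share of *Jun* in the summed RPKM of the 3 genes was 22.1% to 26.8% in control and 14.9% to 17.6% in LAMZ libraries, and the ratio of *Jun* to *Fosl2* was 0.677 to 0.975 in control against 0.224 to 0.257 in LAMZ libraries at day 7 and 0.424 to 0.438 at day 14. Neither range overlapped between treatments. The ratio of the Jun family sum to the Fos family sum was 1.06 and 1.21 in LAMZ libraries at day 7 and 2.05 to 2.84 in the other 6 libraries.

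Of the zinc finger factors, *Egr1* was lower with LAMZ on both days. It measured 1.95 and 3.22 RPKM in control and 0.837 and 1.16 RPKM in LAMZ libraries at day 7, and 5.57 and 6.71 RPKM in control and 2.33 and 3.29 RPKM in LAMZ libraries at day 14. The groups did not overlap within a day, although the LAMZ libraries at day 14 reached the control level of day 7. The ratio of the means was 0.385 and 0.458, and the differences were -0.83 ± 0.21 (SE, adjusted p = 0.0424) and -0.91 ± 0.21 (adjusted p = 0.0184). The call at day 7 held in 5 of 11 other settings and without 1 of the 8 libraries, control replicate 1 of day 7. Without control replicate 2 of that day the difference was -0.57 (adjusted p = 0.156). The call at day 14 held in 9 of 11 settings and was lost without control replicate 1 (adjusted p = 0.0527), control replicate 2 (adjusted p = 0.111) or LAMZ replicate 1 (adjusted p = 0.112).

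*Egr2* measured 0.780 and 0.595 RPKM in control and 0.276 and 0.395 RPKM in LAMZ libraries at day 7, and 0.932 and 1.11 RPKM in control and 0.454 and 1.27 RPKM in LAMZ libraries at day 14. The groups were apart at day 7 and overlapped at day 14, with adjusted p of 0.442 and 0.704, and the direction at day 14 turned from -0.15 to 0.04 after centring on the median and to 0.12 after quantile normalization.

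*Atf3*, a repressor as a homodimer and a partner of Jun proteins, lay below control at day 7 and above it at day 14. Only the difference at day 14 passed, and the change of the LAMZ effect between the days did not (limma, adjusted p = 0.0990). *Atf3* measured 1.85 and 2.14 RPKM in control and 1.52 and 0.535 RPKM in LAMZ libraries at day 7, and 6.66 and 5.65 RPKM in control and 11.0 and 11.4 RPKM in LAMZ libraries at day 14. The LAMZ libraries were below the controls at day 7, by -0.60 ± 0.22 without passing (adjusted p = 0.118), and above them at day 14, by 0.77 ± 0.22 (adjusted p = 0.0390, ratio of the means 1.82). The call at day 14 was lost after rescaling to the same sum (0.45, adjusted p = 0.109), with a pseudocount of 0.1 (adjusted p = 0.144), without a filter on low values (adjusted p = 0.114), and without any single day 14 library (adjusted p from 0.0874 to 0.177) or control replicate 2 of day 7 (adjusted p = 0.0506). At day 7 the lower level passed without LAMZ replicate 1 (-0.96, adjusted p = 0.0298) and after rescaling to the same sum (-0.75, adjusted p = 0.0318).

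**Figure D3:**
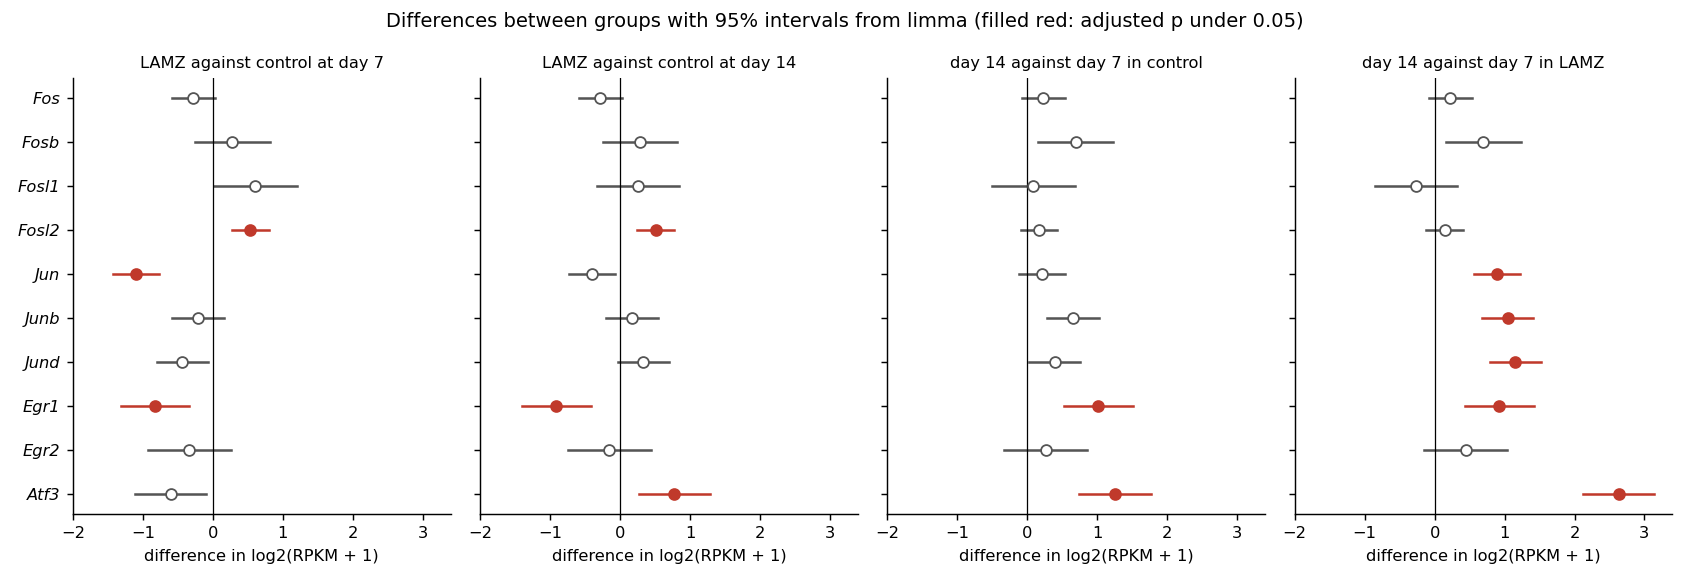
Differences in log2(RPKM + 1) of the 10 genes for LAMZ against control at day 7 and day 14 and for day 14 against day 7 in control and in LAMZ cultures, with 95% intervals from limma and filled red points for an adjusted p under 0.05. The difference of *Atf3* between days in LAMZ cultures, 2.63, lay farthest from 0, and 9 of the 10 genes lay above 0 in that comparison.

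The second question was how the genes moved between day 7 and day 14. In control cultures *Egr1* and *Atf3* rose, which is 2 of 10 against 4.86% of all tested genes called and 2.46% higher, and all 10 differences were above 0. In LAMZ cultures *Jun*, *Junb*, *Jund*, *Egr1* and *Atf3* rose, which is 5 of 10 against 14.4% of all tested genes called and 5.1% higher, and 9 differences were above 0. None of the 10 fell in either by limma, nor at an unadjusted p under 0.05. The median difference of the 10 genes was 0.32 in control and 0.80 in LAMZ cultures, where those of all tested genes were -0.05 and -0.11. Both day 14 libraries lay above both day 7 libraries for 8 of the 10 genes in control cultures and for 9 in LAMZ cultures, against 21% and 21.4% of all tested genes.

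In LAMZ cultures *Atf3* rose by 2.63 ± 0.22 (SE, adjusted p = 0.00064), with a ratio of the mean RPKM of 10.9, which is larger than the difference on the log2(RPKM + 1) scale shows because the day 7 level was near 1. *Jund* rose by 1.15 ± 0.16 (adjusted p = 0.00392, ratio 2.28). These calls of *Atf3* and *Jund* held under all 11 other settings and without any of the 8 libraries. *Junb* rose by 1.04 ± 0.16 (adjusted p = 0.00618, ratio 2.31) and *Jun* by 0.90 ± 0.14 (adjusted p = 0.00685, ratio 1.99), and both held under all 11 settings. *Junb* was lost without LAMZ replicate 2 of day 7 (0.96, adjusted p = 0.0581), and *Jun* was lost without that library (0.88, adjusted p = 0.0605) or without LAMZ replicate 2 of day 14 (0.87, adjusted p = 0.0554). *Egr1* rose by 0.93 ± 0.21 (adjusted p = 0.0261), a call that held in 8 of 11 settings and was lost without any single LAMZ library (adjusted p from 0.0527 to 0.160).

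In control cultures *Atf3* rose by 1.25 ± 0.22 (adjusted p = 0.0232, ratio 3.08) and *Egr1* by 1.01 ± 0.21 (adjusted p = 0.0419, ratio 2.37). *Junb* was higher by 0.65 without passing (adjusted p = 0.0624), although it passed after each of the 3 rescalings. The calls of *Atf3* and *Egr1* were lost with a pseudocount of 0.1, without a filter and in a fit of the 4 control libraries alone, and that of *Egr1* without a mean-variance trend (adjusted p = 0.0503). That of *Atf3* was also lost without any single control library (adjusted p from 0.0561 to 0.144) or either LAMZ library of day 14 (adjusted p of 0.0505 and 0.0501). That of *Egr1* held without control replicate 2 of day 7 and was lost without any other library (adjusted p from 0.0602 to 0.156). The macrophage markers moved as well, with 11 of 15 higher at day 14 in control cultures, beside 2.46% of all tested genes. In LAMZ cultures limma called none of the 15 between the days, with 0 at an unadjusted p under 0.05, and their summed level was 10.5 to 11.4 RPKM at day 7 and 9.33 to 11.1 RPKM at day 14. *Egr1* rose by 0.93 and *Atf3* by 2.63 there, next to 1.01 and 1.25 in control cultures. A link of these rises to the macrophage markers was not tested.

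The difference of the LAMZ effect between the days was tested as well. None of the 10 genes passed in limma, where 0.623% of all tested genes did, and 3 of them had an unadjusted p under 0.05. *Atf3* had the largest difference, 1.38 ± 0.31 (adjusted p = 0.0990), and it passed with a pseudocount of 5 (0.76, adjusted p = 0.0447). *Jund* differed by 0.77 ± 0.22 (adjusted p = 0.163) and *Jun* by 0.69 ± 0.20 (adjusted p = 0.164). For *Fosl2* the effect of LAMZ on the days differed by -0.03 (95% interval -0.40 to 0.35) and for *Egr1* by -0.09 (95% interval -0.78 to 0.61).

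**Figure D4:**
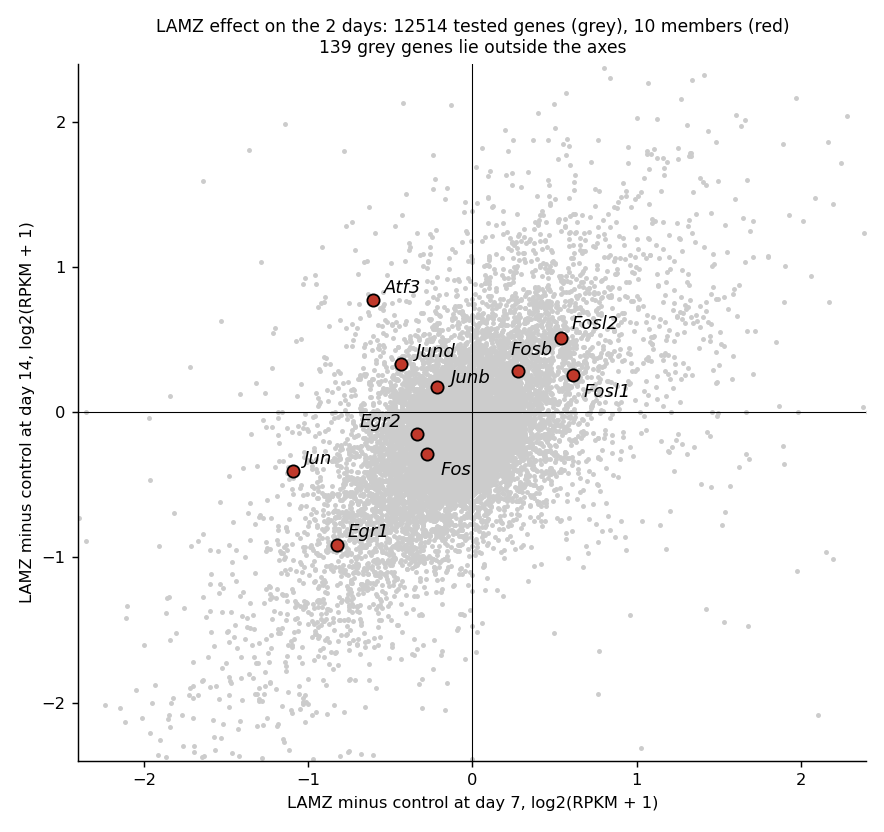
Difference of LAMZ from control in log2(RPKM + 1) at day 7 (horizontal axis) and day 14 (vertical axis) for 12514 tested genes in grey and the 10 named genes in red, with 139 grey genes outside the axes. *Fosl2* lay above 0 and *Egr1* and *Jun* below 0 on both axes, and *Atf3* lay at -0.60 on the horizontal and 0.77 on the vertical axis.

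Further immediate early genes from a list of 36, of which 31 were tested, moved in both directions. At day 7, 4 were higher with LAMZ and 6 lower, beside 4.35% and 8.49% of all tested genes. *Myc*, a growth regulator, measured 14.7 and 17.3 RPKM in control and 42.3 and 46.3 RPKM in LAMZ libraries (1.41, adjusted p = 0.000446). *Ier3* (1.10, adjusted p = 0.0104) and *Klf4* (1.01, adjusted p = 0.0120) were also higher, whereas *Dusp4* (-1.05, adjusted p = 0.0228), *Csrnp1* (-0.65, adjusted p = 0.0377) and *Rhob* (-0.60, adjusted p = 0.0413) were lower. The calls of *Csrnp1* and *Rhob* held in 0 and 1 of the 8 fits that left out 1 library. At day 14, 6 were higher and 2 lower, beside 6.96% and 16% of all tested genes. *Ccn2*, a matricellular protein, measured 79.1 and 90.7 RPKM in control and 238 and 221 RPKM in LAMZ libraries (1.43, adjusted p = 0.000689), followed by *Myc* (1.14, adjusted p = 0.000613) and *Gadd45g* (0.80, adjusted p = 0.00455), and the lower genes were *Dusp4* (-1.33, adjusted p = 0.0051) and *Klf10* (-0.64, adjusted p = 0.0200). The call of *Klf10* was lost without a filter on low values, after centring on the median and after quantile normalization. The median of the 31 was -0.24 at day 7 and -0.12 at day 14, where it turned to 0.07 after centring on the median and to 0.08 after quantile normalization. Rescaling to the same sum gave 4 higher and 12 lower at day 7 and 3 higher and 7 lower at day 14, centring on the median gave 5 and 2, then 10 and 1, and without 1 library 3 to 5 were higher and 0 to 4 lower at day 7, and 3 to 7 higher and 1 to 2 lower at day 14. A fit of the 4 libraries compared gave 2 and 0 at day 7. Of all tested genes, 2.46% rose between the days in control and 5.1% in LAMZ cultures. Between the days, 4 of the 31 rose in control cultures (0 to 4 without 1 library and 0 in a fit of the control libraries alone), where *Zfp36l1* (1.02), *Ccn2* (0.98) and *Dusp1* (0.89) had the largest differences, and 8 rose and 1 fell in LAMZ cultures, where 4 to 10 rose without 1 library.

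Genes induced by ERK signalling that feed back on it were lower in LAMZ cultures where they differed. Of 10 tested, 5 were lower with LAMZ at day 7 and 6 at day 14, beside 8.49% and 16% of all tested genes, none was higher in limma, with 1 and 0 at an unadjusted p under 0.05, and the medians were -0.76 and -0.75. The medians stayed below 0 under each scaling, at -0.64 and -0.56 after centring on the median, although that setting and quantile normalization also called 1 gene higher at day 7, and without 1 library 2 to 5 were lower at day 7 and 3 to 6 at day 14. At day 7 a fit of the 4 libraries compared called 1 lower and a fit without a filter 2. *Spry2*, an inhibitor of receptor tyrosine kinase signalling, measured 7.50 and 7.75 RPKM in control and 2.81 and 2.39 RPKM in LAMZ libraries at day 7 (-1.26, adjusted p = 0.00262), and 8.04 and 8.06 RPKM against 1.23 and 2.06 RPKM at day 14 (-1.79, adjusted p = 0.000281). *Dusp6*, the phosphatase of ERK, measured 6.86 and 5.62 RPKM in control and 0.823 and 2.45 RPKM in LAMZ libraries at day 7 (-1.52, adjusted p = 0.0138), and 6.48 and 9.53 RPKM against 2.41 and 2.42 RPKM at day 14 (-1.38, adjusted p = 0.0121). For *Spry2* and *Dusp6* the groups were apart on both days, in the same direction as *Egr1*. *Dusp4* was the third of the lower genes on both days. Their summed level over the 11 genes in the list was 47.8 to 60.4 RPKM in control and 29.6 to 32.7 RPKM in LAMZ libraries.

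The kinases and factors upstream of these genes carry the signal to their promoters. Of 20 tested, 2 were lower at day 7, which were *Mapk7*, the kinase ERK5 (-0.97, adjusted p = 0.00259), and *Elk3*, a partner of serum response factor (-0.52, adjusted p = 0.0467), and 3 were lower at day 14, which were *Elk3* (-0.78, adjusted p = 0.0060), *Mrtfa* (-0.67, adjusted p = 0.00978) and *Mapk7* (-0.56, adjusted p = 0.0150). These 2 and 3 of 20 stood near the 8.49% and 16% of all tested genes that were lower. The call of *Elk3* at day 7 was lost without any single library (adjusted p from 0.0520 to 0.253), and at day 14 1 to 3 were lower without 1 library. None was higher on either day in limma, nor at an unadjusted p under 0.05, and the medians of -0.13 and -0.14 stood near the -0.08 and -0.15 of all tested genes. Of 12 calcium or cAMP responsive genes besides *Fos*, 6 were tested, and with LAMZ none passed at day 7 in limma, with 0 at an unadjusted p under 0.05, and *Per1* was lower at day 14 (-0.51, adjusted p = 0.0476), a call that held in 4 of 11 settings and was lost without any single library (adjusted p from 0.0523 to 0.234). In LAMZ cultures *Sik1* (0.89, adjusted p = 0.0467) and *Rcan1*, a target of calcineurin and NFAT (0.65, adjusted p = 0.0150), rose between the days, calls that held in 1 and 4 of the 8 fits that left out 1 library. Of 9 other dimer partners tested, *Jdp2* (-0.67, adjusted p = 0.0107) and *Batf* (-0.67, adjusted p = 0.0425) were lower with LAMZ at day 7 and *Maf* (-0.37, adjusted p = 0.0475) at day 14. That is 2 and 1 of 9, beside 8.49% and 16% of all tested genes. The calls of *Jdp2*, *Batf* and *Maf* held in 5, 1 and 2 of the 8 fits that left out 1 library, and none of the 9 was lower at day 7 without control replicate 1 or LAMZ replicate 1 of that day. That of *Maf* was lost without any single day 14 library and after centring on the median.

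Known AP-1 target genes went both ways. Of 16 tested, 2 were higher and 4 lower with LAMZ at day 7 (beside 4.35% and 8.49% of all tested genes), and 7 were higher and 5 lower at day 14 (beside 6.96% and 16%), with medians of 0.14 and 0.21 that turned to -0.06 and -0.14 after rescaling to the same sum. The higher ones at day 7 were *Ibsp*, a bone matrix sialoprotein (1.48, adjusted p = 0.000588), and *Tgfb1* (1.24, adjusted p = 0.0012). *Ccl2*, a chemokine, measured 7.22 and 11.9 RPKM in control and 0.206 and 0 RPKM in LAMZ libraries at day 7 (-3.23, adjusted p = 0.000172). *Plau*, a protease that activates plasminogen (-1.15, adjusted p = 0.00259), was lower as well. At day 14, *Ibsp* (2.54, adjusted p = 2.39e-05), *Mmp9* (1.48, adjusted p = 0.0075) and *Tgfb1* (1.30, adjusted p = 0.000501) led the higher genes, and *Ccl2* (-3.53, adjusted p = 5.79e-05), *Plau* (-2.27, adjusted p = 6.11e-05) and *Mmp3* (-1.06, adjusted p = 0.0395) led the lower ones. The call of *Mmp3* held in 3 of the 8 fits that left out 1 library. *Mmp13*, a collagenase with an AP-1 site in its promoter, measured 105 and 169 RPKM in control and 299 and 354 RPKM in LAMZ libraries at day 14. In control cultures 5 of the 16 rose between the days, beside 2.46% of all tested genes, with *Bglap* (3.12), *Mmp13* (1.15) and *Tgfb1* (1.10) in front. Without 1 library 1 to 3 rose, and 0 in a fit of the control libraries alone. In LAMZ cultures 8 of the 16 rose, beside 5.1% of all tested genes, with *Bglap* (2.32), *Mmp13* (1.86) and *Hmox1* (1.51) in front, and none fell in limma, nor at an unadjusted p under 0.05, with 4 to 9 higher without 1 library. *Ccl2* and *Plau* are also made by macrophages, and *Ibsp* and *Bglap* are osteoblast markers, so the list is mixed in cell type.

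**Figure D5:**
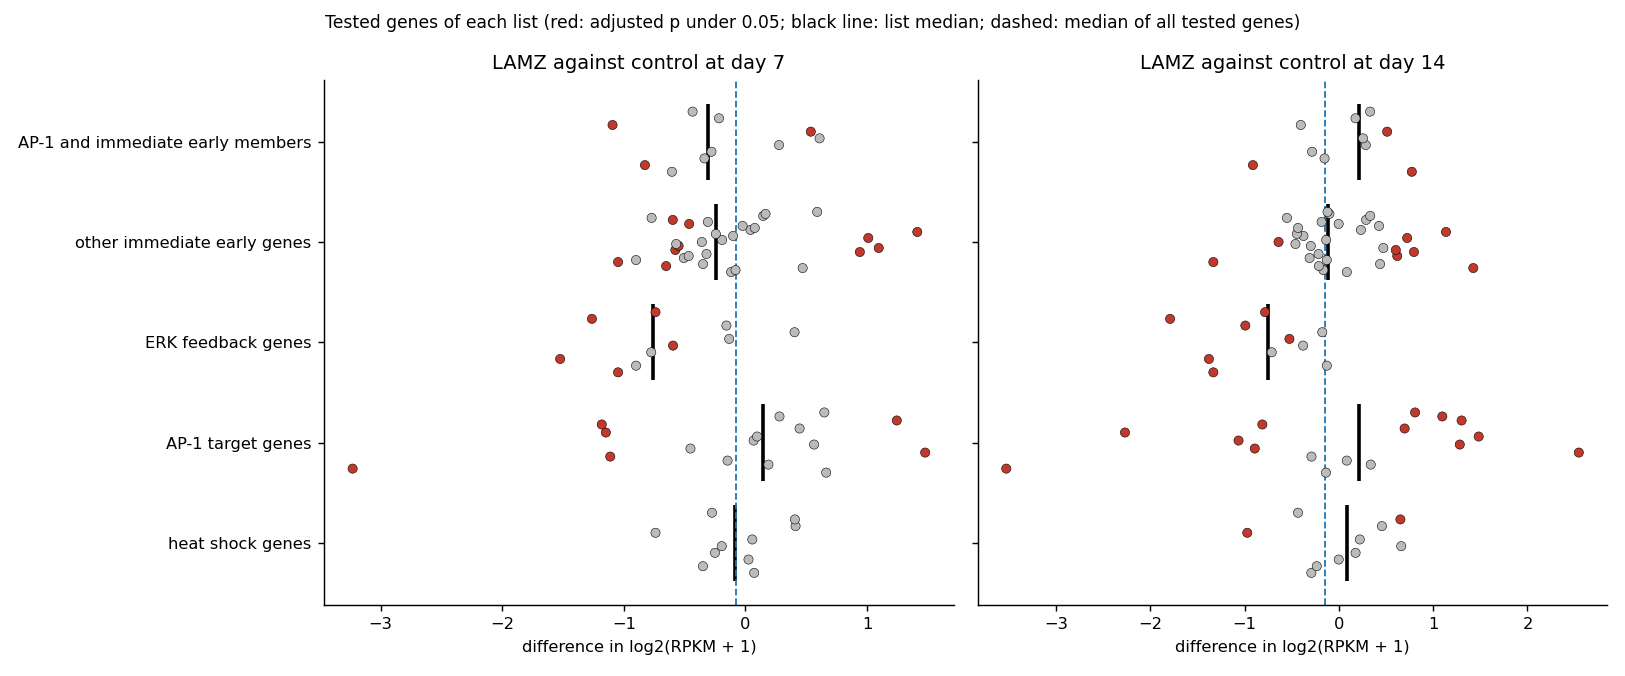
Difference of LAMZ from control in log2(RPKM + 1) at day 7 (left) and day 14 (right) for each tested gene of 5 lists, red where the adjusted p was under 0.05, with black lines at the list medians and a dashed line at the median of all tested genes. The ERK feedback genes lay mostly left of the dashed line as deposited, with medians of -0.76 and -0.75, while the other lists spread to both sides.

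Of 7 EGR repressors and targets, *Pdgfa* (1.49, adjusted p = 0.000245) and *Tgfb1* were higher and *Csf1* (-1.19, adjusted p = 0.00122) was lower with LAMZ at day 7, beside 4.35% and 8.49% of all tested genes. At day 14, *Pdgfa* (1.59, adjusted p = 8.0e-05) and *Tgfb1* were again higher, and *Fgf2* (-1.02, adjusted p = 0.00451) and *Csf1* (-0.58, adjusted p = 0.0155) were lower. *Csf1*, the growth factor of macrophages, measured 71.7 and 63.6 RPKM in control and 27.7 and 30.4 RPKM in LAMZ libraries at day 7. Heat shock genes, taken as a sign of acute stress, did not pass in any of 10 cases at day 7 in limma, with 1 higher and 2 lower at an unadjusted p under 0.05, and at day 14 *Hspe1* was higher (0.65, adjusted p = 0.0232) and *Hspb1* lower (-0.97, adjusted p = 0.0152). For both lists at day 14, the shares of all tested genes were 6.96% higher and 16% lower. The summed level of the heat shock genes was 350 to 586 RPKM in control and 365 to 566 RPKM in LAMZ libraries.

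Finally, the tested genes whose levels followed each of the 10 most closely over the 8 libraries were listed, as a description over libraries that share treatment and day. *Jun* was most like *Csf1* (Pearson's r = 0.985), *Fosl2* was most like *Igfbp5* (r = 0.991) and the osteocyte gene *Dmp1* (r = 0.986), and *Junb* was most like the ERK and p38 phosphatase *Dusp1* (r = 0.984). *Atf3* was most like *Atf5* (r = 0.981) and *Gadd45a* (r = 0.968), both of which respond to stress, and *Jund* was most like *Cebpb* (r = 0.980) and *Atf5* (r = 0.964). *Egr1* was most like *Tns2* (r = 0.981), and *Fos* was most like *Ifngr1* (r = 0.954). Of the genes with few reads, *Fosl1* was most like *Rps12* (r = 0.965), *Fosb* most like *Imp3* (r = 0.929) and *Egr2* most like *Igfbp7* (r = 0.928). Among the 10 genes themselves, *Junb* with *Atf3* (r = 0.939), *Jund* with *Atf3* (r = 0.935), *Junb* with *Jund* (r = 0.904) and *Fos* with *Jun* (r = 0.900) were closest. The most opposite pairs were *Fosl1* with *Jun* (r = -0.66) and *Fosl2* with *Fos* (r = -0.58) and *Jun* (r = -0.57).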

How the data were processed

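Per the labels, the cells were treated with DMSO or LAMZ and total RNA was sequenced on day 7 and day 14. The authors ran an Ion Proton instrument, assigned reads to genes with CLC Genomics Workbench (build mm10 in the submitters' processing notes) and deposited RPKM values per gene symbol. The counter's version, its annotation and its use of strand are not given in the sources used here. Entries whose symbols had turned into dates (4 per file) were dropped, which left 51822 symbols. 

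The depth was recovered with GENCODE M21 lengths as the number of mapped reads that turned low RPKM values of genes with 1 exon into whole reads, within 0.05 of a read for 94.2% to 96.4% of the values checked. For *Fosl2*, *Fosb* and *Fosl1* the annotated lengths of 9680, 6243 and 2033 bases did not give whole reads. Their read counts are inferred from the smallest lengths that did, 6841, 3778 and 1704 bases. Differences were tested on log2(RPKM + 1) by limma 3.58.1 in R 4.3.3, with 4 groups in 1 fit, a mean-variance trend, 1 RPKM or more in 2 or more libraries, and Benjamini-Hochberg adjustment over all 12514 genes. An adjusted p under 0.05 was called higher, lower, rose or fell. RPKM is scaled within a library only, so a shift in a few abundant genes moves all others. Other pseudocounts, filters, scalings, fits with a replicate block and fits without each library were run, and the method was tested on simulated data. Motifs and windows came from RefSeq. The 10 genes and all gene lists were chosen with earlier results of these data known. All 10 were described. From the other lists up to 3 genes with the largest rise and 3 with the largest fall among those called were named per comparison, markers were given as counts and sums, and genes of like pattern were the closest by Pearson's r among tested genes with a mean RPKM of at least 5 and a range of at least 1 in log2. *Mmp13* at day 14 was named after its values were seen, and 1 gene that this rule names is not reported here.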

Additional observations from a re-analysis of the deposited data

Results flagged for a closer look

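Among the genes of all lists, 3 passed limma's interaction test for an effect of LAMZ that differs between the days. For *C1qb* and *C1qc* the result cannot be read that way, for the reason given below. The 3 calls were lost without any single one of the 8 libraries and held in 5 of 10 other settings for *Ier2*, 6 for *C1qb* and 3 for *C1qc*. For *Ier2*, an immediate early gene, the difference (day 14 effect minus day 7 effect) was 1.18 ± 0.18 in log2(RPKM + 1) (SE, adjusted p = 0.0369, from 0.0667 to 0.147 without 1 library). It measured 6.97 and 6.26 RPKM in control and 3.70 and 4.54 RPKM in LAMZ libraries at day 7, and 8.69 and 8.28 RPKM in control and 13.6 and 13.2 RPKM in LAMZ libraries at day 14. It was thus lower with LAMZ at day 7 (-0.58, adjusted p = 0.0226) and higher at day 14 (0.60, adjusted p = 0.0114), the order of directions that *Atf3* and *Jund* also showed without passing this test, although *Jund* at day 14 turned to -0.03 after rescaling to the same sum. For the macrophage genes *C1qb* and *C1qc* the difference was -1.44 ± 0.18 (adjusted p = 0.0287) and -1.20 ± 0.20 (adjusted p = 0.0487), with adjusted p from 0.0522 to 0.131 and from 0.0592 to 0.176 without 1 library. Both were listed at 0 in all 4 LAMZ libraries. In control libraries *C1qb* measured 30.7 and 37.7 RPKM at day 7 and 91.2 and 97.4 RPKM at day 14, and *C1qc* measured 18.4 and 22.4 RPKM, then 51.8 and 44.2 RPKM.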

How the results depend on the processing

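The members called in each comparison were counted again under 11 other settings and without each of the 8 libraries. With the values rescaled to the same sum, 5 members passed for LAMZ at day 7 and 5 on average over the days, and 4 rose in control cultures between the days. Quantile normalization gave 5 on average over the days. A fit of the 4 libraries compared gave 1 at day 7 and 0 for the days in control cultures, no filter on low values gave 1 for LAMZ at day 14 and 0 for the days in control cultures, a pseudocount of 0.1 gave 0 and no mean-variance trend gave 1 for the days in control cultures, and a pseudocount of 5 gave 1 for the difference between days. Without 1 library, the counts were 1 to 2 for LAMZ at day 7, 0 to 4 at day 14, 3 to 4 on average, 0 to 1 for the days in control cultures, 2 to 5 for the days in LAMZ cultures and 0 for the difference. With a replicate block the counts were 3 and 3 for LAMZ at day 7 and day 14 with the block across all groups, and 2 and 2 with a block within each day. The replicate numbers did not pair the libraries, with correlations of deviations of -0.03 to 0.06, and a call lost under the block is not a weaker effect.

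Directions turned for 5 differences that had not passed. *Junb* and *Jund* with LAMZ at day 14 were at -0.15 and -0.027 after rescaling to the same sum, *Egr2* was at 0.038 after centring on the median, at 0.12 after quantile normalization and at -0.47 to 0.17 without 1 library, and *Fosl1* at day 14 was at -0.048 to 0.56 and between the days in control cultures at -0.22 to 0.39 without 1 library. Every called difference kept its direction in all 19 alternatives. Of all tested genes, 544 were higher and 1063 lower with LAMZ at day 7, against 857 and 745 after centring on the median, and 871 and 2007 at day 14, against 1608 and 1249. With 2 libraries per group and 3 to 39 reads for *Fosb*, 6 to 24 for *Fosl1* and 4 to 21 for *Egr2*, small differences of these genes were not detectable.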
